A study of Mus musculus with 9 samples.

Results

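Red pulp macrophages are the resident phagocytes of the splenic red pulp, and 9 genes used to recognise them and related macrophages are described here across conventional T cells, conventional dendritic cells (DC) and the population that the submitters named TDC. The genes Adgre1, Vcam1, Maf, Lyz2, Cd68, Mpeg1, Mrc1, Fcna and Treml4 were chosen by name. Each of the 9 was found once among the 50508 rows of the deposited count table. All 9 passed the filter on low counts that left 14708 genes for testing, Fcna and Mrc1 only with their TDC reads. All 3 populations were sorted from spleens of untreated mice, 8 weeks old and homozygous for the Zbtb46-GFP reporter allele, in which green fluorescent protein is made from a locus that conventional DC use, so the control populations carry the same allele as TDC. Each population had 3 libraries, every one from spleens pooled from 5 mice (replicate 1) or 6 mice (replicates 2 and 3), and the sorting gates are not described in the labels. The labels do not say which mice entered which pool, and the p-values reflect only how much such pools vary.

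Red pulp macrophages take up aged red cells from the open circulation of the spleen, break down their heme and return the iron, and their formation depends on the transcription factor Spi-C. They are recognised by the surface protein F4/80 (Adgre1) together with the adhesion molecule VCAM-1. Several of the 9 genes are not exclusive to them: lysozyme (Lyz2), the lysosomal glycoprotein CD68 and the pore-forming protein perforin-2 (Mpeg1) are used by many myeloid cells, Maf also by some T cells, and Vcam1 and Mrc1 also by endothelial or stromal cells.

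Libraries held 10986544 to 25676640 reads assigned to genes. Levels are CPM, reads of a gene scaled to a common library total of tested genes after TMM scaling, and a group mean is given ± SD (n = 3 libraries). The libraries were made with a kit that reads near the 3' end of each transcript, so CPM carries no term for gene length. Levels of different genes are compared as transcript ends counted. The annotation is not stated, so how fully each gene was counted is not known. A group total of 3 reads, about the upper 95% limit of the expected count where 0 reads are seen, corresponds to 0.0557 CPM in T cells and 0.0524 CPM in DC. Folds given as at least a value rest on this limit. These limits cover counting error only. The sort labels matched the defining genes in the controls: T cells held 354 ± 36.0 CPM of Cd3e, which had no read in DC, and DC held 67.1 ± 40.9 CPM of Zbtb46, against 1.28 ± 0.304 CPM for T cells. TDC held 9.01 ± 3.52 CPM of Cd3e and 7.95 ± 2.23 CPM of Zbtb46. Scaling by library size alone moved the median over all genes, as log2 fold change, by -0.61 (TDC against T cells), -0.29 (TDC against DC) and -0.29 (DC against T cells) and the higher share of the calls from 66.0% to 42.9%, from 67.5% to 53.1% and from 64.7% to 50.2%.

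The 300 bases around the transcription start (250 before, 50 after) were in the RefSeq promoter table (GRCm38.p6) for 6 of the 9 genes, Lyz2, Cd68, Mpeg1, Mrc1, Fcna and Treml4. The deposited table gives no coordinates. The 5 sequences below are shown because they belong to the genes at both ends of the comparison of TDC with DC, Fcna and Mrc1 at one end and Cd68 and Mpeg1 at the other, and to Treml4, which lies between them. Capitals mark GAGGAA or its reverse complement TTCCTC, the core that the myeloid factor PU.1 and its relative Spi-C recognise.
Fcna, chr2:25627925-25628224, minus strand: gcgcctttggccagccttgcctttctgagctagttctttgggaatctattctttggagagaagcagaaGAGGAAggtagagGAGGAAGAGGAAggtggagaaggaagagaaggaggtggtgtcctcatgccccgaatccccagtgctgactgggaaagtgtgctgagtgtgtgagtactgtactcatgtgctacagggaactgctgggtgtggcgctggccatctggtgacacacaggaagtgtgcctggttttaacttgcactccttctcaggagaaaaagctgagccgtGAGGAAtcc
Mrc1, chr2:14229164-14229463, plus strand: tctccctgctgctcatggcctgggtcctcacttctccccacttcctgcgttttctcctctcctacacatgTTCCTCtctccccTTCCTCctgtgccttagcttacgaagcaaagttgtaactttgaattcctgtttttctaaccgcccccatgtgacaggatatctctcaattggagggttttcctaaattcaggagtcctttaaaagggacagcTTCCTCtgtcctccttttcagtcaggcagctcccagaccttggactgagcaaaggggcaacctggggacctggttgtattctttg
Treml4, chr17:48264045-48264344, plus strand: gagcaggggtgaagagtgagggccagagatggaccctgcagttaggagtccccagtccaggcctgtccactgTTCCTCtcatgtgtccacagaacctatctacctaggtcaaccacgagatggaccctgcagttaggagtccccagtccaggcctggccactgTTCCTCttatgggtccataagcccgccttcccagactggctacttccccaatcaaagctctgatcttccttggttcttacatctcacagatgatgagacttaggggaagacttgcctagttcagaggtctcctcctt
Cd68, chr11:69666121-69666420, minus strand: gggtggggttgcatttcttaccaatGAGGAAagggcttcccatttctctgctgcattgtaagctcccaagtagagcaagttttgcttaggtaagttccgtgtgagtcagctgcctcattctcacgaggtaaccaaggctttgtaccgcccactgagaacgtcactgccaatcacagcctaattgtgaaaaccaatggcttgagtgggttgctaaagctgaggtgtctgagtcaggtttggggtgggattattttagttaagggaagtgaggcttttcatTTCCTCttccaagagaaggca
Mpeg1, chr19:12460520-12460819, plus strand: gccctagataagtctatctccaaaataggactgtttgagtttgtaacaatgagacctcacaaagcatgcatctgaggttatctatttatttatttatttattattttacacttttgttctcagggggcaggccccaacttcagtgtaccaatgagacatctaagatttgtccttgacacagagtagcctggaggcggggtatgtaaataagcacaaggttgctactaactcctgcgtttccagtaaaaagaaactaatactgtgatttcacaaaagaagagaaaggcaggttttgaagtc
The PU.1 core was searched on both strands and was present in 4 of the 6 promoters, against 28.3% of the 32851 promoters of this length. Fcna held 4 copies, of which a pair adjoin each other, and Mrc1 held 3. Of all promoters 0.685% held 3 or more. Treml4 and Cd68 held 2 each, and none was found in the windows of Lyz2 and Mpeg1. In Treml4 each copy lies shortly after one copy of a 40-base direct repeat, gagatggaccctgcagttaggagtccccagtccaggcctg. The letters TGCTGA, part of the element that Maf factors recognise and searched on both strands, occurred in Fcna and Lyz2 and in 19.5% of all promoters. The letters TGANTCA of AP-1 sites occurred in Cd68 alone of the 6, at 2 places, and in 7.81% of all promoters. The letters TTGCNNAA of CEBP sites also occurred in Cd68 alone, and in 10.8% of all promoters. The E-box CACGTG (7.15% of all promoters) and TATAAA (13.6%) were searched as well and occurred in 0 of the 6. These matches are letters in a window, not binding sites.

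TDC exceeded conventional T cells in all 9 genes, and 8 of the 9 were higher in TDC than in DC, Mpeg1 being the exception. Vcam1, Fcna and Lyz2 were among the most abundant transcripts of TDC, and DC carried less than 1% of the TDC level of Fcna, Mrc1, Vcam1 and Maf. In these pools a smaller share of positive cells and less RNA per cell cannot be told apart. The background was 21.8% of all tested genes called higher in TDC than in T cells and 9.55% called higher in TDC than in DC (edgeR's quasi-likelihood test, Benjamini-Hochberg adjusted p under 0.05). In either direction 33.0% of genes were called between TDC and T cells and 14.1% between TDC and DC. Higher calls in both comparisons, which those 8 genes had, were made for 7.06% of genes, and the full order TDC, DC, T cells with a call at each step, shown by 6 of the 9 (Adgre1, Vcam1, Lyz2, Cd68, Fcna and Treml4), for 1.89%. Every TDC library lay above every library of either control for each of the 9 genes. Of tested genes 29.6% had this pattern against T cells and 20.1% against DC. The share with both patterns at once was not counted. Fcna and Mrc1, both called higher in TDC in each comparison, needed their TDC reads to pass the filter on low counts. The median log2 fold change of the 9 genes was 16.53 against T cells (15.15 with genes that had no read in T cells at their lower bound) and 3.84 against DC, beside 0.14 and 0.01 over all tested genes. Summed over the 9 genes, their share of all reads was 2.71% to 3.28% for TDC libraries, 0.146% to 0.189% for DC and 0.00128% to 0.00205% for T cells.

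**Figure D1:**
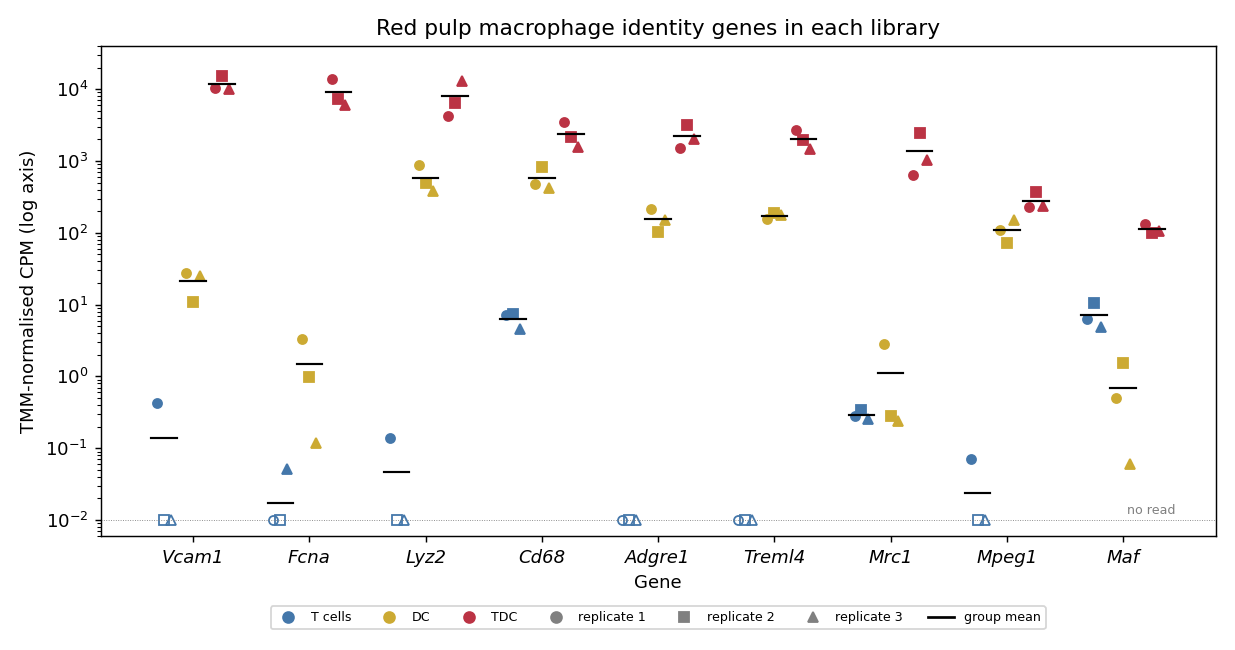
Level of each of the 9 genes in each library, as TMM-normalised CPM on a log axis, with replicates as separate symbols, group means as black bars and open symbols on the dotted line for libraries with no read. For every gene the 3 TDC libraries lie above all DC and T cell libraries, and for Maf alone the T cell libraries lie above the DC libraries.

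Vcam1 encodes the adhesion molecule VCAM-1, a ligand of integrins on leukocytes that red pulp macrophages display at high level. It was counted at 10545, 15252 and 9952 CPM in TDC replicates 1, 2 and 3, where it ranked 13th, 3rd and 7th of all genes. The DC libraries held 27.4, 10.8 and 24.9 CPM. All 6 reads of T cells came from replicate 1 (0.422 CPM), with none in the other two. The groups did not overlap, and the TDC mean of 11916 ± 2904 CPM was 566-fold above DC (log2 fold change 9.14, SE 0.90, adjusted p = 0.000279) and 84705-fold above T cells (16.53, SE 1.195, adjusted p = 8.15e-06). Without T cell replicate 1 no T cell read was left, and Vcam1 was at least 157536-fold higher in TDC (3 reads over the remaining libraries).

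Adgre1 encodes F4/80, the classical surface marker of mouse macrophages. TDC held 1515, 3148 and 1999.7 CPM. DC held 212, 103 and 149 CPM, and T cells had no read in any library. DC thus carried this gene at a clear but lower level, 6.97% of the TDC mean, whereas they carried 0.177% of the TDC level of Vcam1. Within a library, Vcam1 was 4.84 to 6.96 times as abundant as Adgre1 in TDC but 0.105 to 0.167 times as abundant in DC. The TDC mean of 2221 ± 839 CPM was 14.3-fold above DC (log2 fold change 3.84, SE 0.44, adjusted p = 0.00125) and at least 39885-fold higher than T cells (adjusted p = 4.34e-06).

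Treml4 encodes a TREM-like immunoglobulin receptor of splenic macrophages and DC that is involved in sensing dying cells. It was at 2681, 1942 and 1468 CPM in TDC and at 154, 187 and 176 CPM in DC, with no read in T cells. The DC libraries differed less for this gene, 1.22-fold from lowest to highest, than for any other of the 9. The TDC mean was 11.8-fold above DC (log2 fold change 3.56, SE 0.36, adjusted p = 0.000590) and at least 36467-fold higher than T cells (adjusted p = 1.94e-06).

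Mrc1 encodes the mannose receptor CD206, an endocytic lectin of macrophages and of some endothelium. TDC held 634, 2465 and 1031 CPM, a 3.89-fold range that was the widest of the 9 genes, with replicate 2 highest. DC held 2.87, 0.279 and 0.238 CPM and T cells 0.281, 0.346 and 0.258 CPM, so DC replicates 2 and 3 lay at the T cell level and DC replicate 1 alone above it. TDC were 1219-fold above DC (log2 fold change 10.16, SE 1.11, adjusted p = 0.000436) and 4669-fold above T cells (12.15, SE 1.21, adjusted p = 5.32e-05). The log2 fold change against DC was 12.35 without DC replicate 1 and 9.39 without TDC replicate 2, and against T cells 11.41 without TDC replicate 2.

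Fcna encodes ficolin A, a secreted lectin of the complement lectin pathway, and its promoter is the first of those printed above. It was at 13860.2, 7238 and 6092 CPM in TDC and ranked 9th, 14th and 15th there. DC held 88, 14 and 2 reads in replicates 1, 2 and 3 (3.37, 0.975 and 0.119 CPM), and T cells held 1 read in all. Of the 9 genes Fcna had the lowest DC level relative to TDC, 0.0164% of the TDC mean. It was 6093-fold above DC (log2 fold change 12.52, SE 1.17, adjusted p = 0.000213), and the log2 fold change was 14.04 without DC replicate 1. Pooled reads put it 464030-fold above T cells, with an exact 95% counting interval from 83284 up, and the difference passed (adjusted p = 1.49e-05). Without T cell replicate 3, which held the read, it was at least 104125-fold higher. Fcnb, the other mouse ficolin gene, was without a read in all 9 libraries.

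Lyz2 encodes lysozyme M, an enzyme that cleaves bacterial cell walls and is abundant in macrophages, monocytes and neutrophils. TDC held 4241, 6392 and 13199 CPM, with replicate 3 highest by a wide margin. DC held 875, 495 and 388 CPM, and T cells held 2 reads, both in replicate 1. Pooled reads put Lyz2 214910-fold above T cells, with an exact 95% counting interval from 59493 up (adjusted p = 4.19e-06), and at least 105025-fold higher without that replicate. The groups did not overlap, and the mean of 7944 ± 4676 CPM in TDC was 13.6-fold above DC (fold change 3.76 on the log2 scale, SE 0.61, adjusted p = 0.00288). Lyz1, a near-identical neighbour whose reads may not be told apart from those of Lyz2, was at 48.1, 48.3 and 102 CPM in TDC, 25.2, 7.66 and 13.3 CPM in DC and absent from T cells. Its difference between TDC and DC passed (log2 fold change 2.10, SE 0.56, adjusted p = 0.0392).

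Cd68 encodes a heavily glycosylated protein of late endosomes and lysosomes. TDC held 3438, 2158 and 1549 CPM, DC held 477, 821 and 417 CPM and T cells 7.10, 7.41 and 4.58 CPM. All 3 groups were separate, and the T cell mean of 6.37 CPM, 0.267% of the TDC mean, was second only to that of Maf among the 9 genes, with overlapping T cell libraries. TDC were 4.17-fold above DC (log2 fold change 2.06, SE 0.41, adjusted p = 0.00770) and 374-fold above T cells (8.55, SE 0.55, adjusted p = 4.34e-06). The call against DC ended when the replicates numbered 1 of all groups were left out (adjusted p = 0.127, the highest over the alternatives, against a lowest of 1.56e-05).

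Mpeg1 encodes perforin-2, a pore-forming protein that acts on bacteria in phagosomes. TDC held 227, 374 and 238 CPM and DC 109, 71.1 and 151 CPM, while T cells held 1 read. The TDC libraries lay above the DC libraries without overlap, but the 2.54-fold difference did not pass (log2 fold change 1.34, SE 0.41, adjusted p = 0.0537). It passed with no low-count filter (adjusted p = 0.0300), with the DESeq2 Wald test (0.0173), with limma-voom (0.0120) and without DC replicate 3 (0.0433), in a range from 0.0120 to 0.309 over the alternatives. The lack of a call therefore does not show that levels were alike. Against T cells Mpeg1 passed (15767-fold by pooled reads, exact 95% counting interval from 2829 up, adjusted p = 2.89e-06), and it was at least 3699-fold higher without T cell replicate 1, which held the only read.

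Maf encodes c-Maf, a large Maf family transcription factor of macrophages and of several T cell subsets. TDC held 132, 98.5 and 105 CPM, the narrowest range of the 9 genes at 1.34-fold. T cells held 6.33, 10.5 and 4.95 CPM and DC 0.498, 1.53 and 0.0596 CPM. Maf was the only one of the 9 with the order TDC, T cells, DC, and no library broke that order. TDC were 160-fold above DC (log2 fold change 7.36, SE 0.84, adjusted p = 0.000533) and 15.4-fold above T cells (3.94, SE 0.70, adjusted p = 0.00188). The log2 fold change against DC was 8.43 without DC replicate 2. Without the replicates numbered 1 the adjusted p against T cells was 0.0512, the highest over the alternatives, the lowest being 1.02e-08. Mafa and Nrl, also genes of large Maf factors, had no read in any library.

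The DC level as a share of the TDC mean separated the 9 genes into a low and a high range, which were told apart after their values were seen. Fcna (0.0164%), Mrc1 (0.0820%), Vcam1 (0.177%) and Maf (0.624%) were below 1% of the TDC mean. Adgre1 (6.97%), Lyz2 (7.38%), Treml4 (8.49%), Cd68 (24.0%) and Mpeg1 (39.4%) lay at several percent or more. The neighbours Adgre1, Lyz2 and Treml4 overlapped in their single DC libraries (4.65% to 11.02% of the TDC mean), so their order is not beyond the spread. Fcna and Treml4 illustrate the gap: Fcna was 3.73 to 5.17 times as abundant as Treml4 within TDC libraries and 0.000677 to 0.0219 times as abundant within DC libraries.

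**Figure D2:**
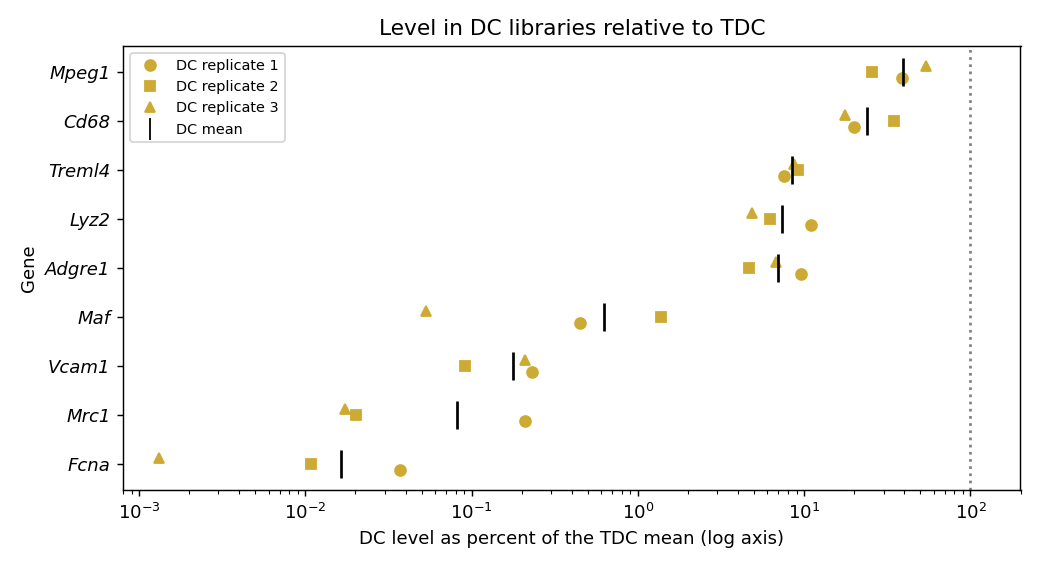
Level of each gene in the 3 DC libraries as a percent of the mean of the 3 TDC libraries, on a log axis, with the DC mean as a black bar and a dotted line at the TDC mean. The DC means run from 0.0164% for Fcna to 39.4% for Mpeg1, with no gene between Maf at 0.624% and Adgre1 at 6.97%.

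DC were compared with T cells to see which of the genes the conventional DC themselves carry. Adgre1, Treml4, Lyz2, Cd68, Mpeg1, Vcam1 and Fcna, 7 of the 9, were higher in DC, beside 15.4% of all tested genes, and Maf was lower, beside 8.41%. Calls in either direction made up 23.8% of tested genes, and 21.8% had every DC library above every T cell library, as had the 7 genes. The median log2 fold change was 7.39 for the 9 genes and 0.08 for all tested genes. Fcna, one of the 7, needed its TDC reads to pass the filter on low counts, as did Mrc1, which was not called. Treml4 and Adgre1, without a read in T cells, were at least 3097-fold and at least 2780-fold higher in DC (adjusted p = 5.62e-06 and 1.39e-05). Cd68 was 89.8-fold higher (log2 fold change 6.49, SE 0.50, adjusted p = 1.44e-05). Vcam1 was 150-fold higher (7.39, SE 0.95, adjusted p = 0.000302), and at least 278-fold higher without T cell replicate 1, which held all of its T cell reads. Maf fell by 3.42 on the log2 scale (SE 0.73, adjusted p = 0.00654), and by 4.50 without DC replicate 2. By pooled reads Lyz2 was 17164-fold (exact 95% counting interval from 4751 up, adjusted p = 1.34e-05) and Mpeg1 6017-fold higher in DC (from 1079.6 up, adjusted p = 5.74e-06). Without T cell replicate 1 they were at least 7748-fold and at least 1458-fold higher.

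The calls for Fcna and Maf between DC and T cells were the least stable. Fcna rested on 104 reads in DC against 1 in T cells (97.9-fold by pooled reads, exact 95% counting interval 17.2 to 3902, adjusted p = 0.00966). Without DC replicate 1, which held 88 of those reads, the ratio was 27.7 (4.30 to 1161, adjusted p = 0.0362), and without T cell replicate 3 Fcna was at least 17.1-fold higher (adjusted p = 0.0367). Its adjusted p was 0.0720 with limma-voom, and 0.103 and 0.0722 without the replicates numbered 1 and 2, in a range from 0.000125 to 0.103 over the alternatives. Maf did not pass when the 2 groups were fitted alone (adjusted p = 0.0534) or without the replicates numbered 1 (0.101), in a range from 4.39e-06 to 0.101. Mrc1 did not pass (log2 fold change 1.99, SE 0.96, adjusted p = 0.167), and the sign of its difference turned without DC replicate 1 (-0.19, adjusted p = 0.920, in a range from 0.0766 to 0.920). DC replicate 1 was also the highest DC library for 5 of the 9 genes and for 9 of the 19 other red pulp macrophage genes with reads in DC, beside 28.5% of all tested genes with reads in DC. Whether RNA of other cells contributed to that library was not tested.

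The TDC libraries did not share a single order over the 9 genes. Replicate 1 was highest for Fcna, Cd68, Treml4 and Maf, replicate 2 for Mrc1, Adgre1, Mpeg1 and Vcam1, and replicate 3 for Lyz2. Over all genes with a mean of at least 10 CPM and reads in every TDC library, the shares highest in replicates 1, 2 and 3 were 42.4%, 38.0% and 19.6%, near the 4, 4 and 1 of 9 seen here. Among those 8731 genes the highest library was 1.86-fold above the lowest at the median, with quartiles of 1.47 and 2.48. Mrc1 (3.89-fold) and Lyz2 (3.11-fold) ranged more widely than the upper quartile. Fcna (2.28-fold), Cd68 (2.22-fold), Adgre1 (2.08-fold), Treml4 (1.83-fold), Mpeg1 (1.65-fold) and Vcam1 (1.53-fold) lay within the quartiles, and Maf (1.34-fold) below them. Lyz2 was 1.23, 2.96 and 8.52 times as abundant as Cd68 in TDC replicates 1, 2 and 3. The summed level of the 9 genes ran from 35633 to 39067 CPM.

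Marker genes of monocytes and DC, set beside Lyz2, also differed between the TDC libraries. Of 6 classical monocyte genes with reads in TDC, 3 were highest in replicate 3 (Ccr2, Ly6c2 and Plac8), 2 in replicate 2 (Fn1 and F13a1) and 1 in replicate 1 (Vcan). Of 6 non-classical monocyte genes 4 were highest in replicate 2 and 2, Cx3cr1 and Spn, in replicate 3. Of 10 conventional DC genes 9 were highest in replicate 3. Replicate 3 was also highest for 7 of 10 T cell genes and 3 of 5 plasmacytoid DC genes. It was highest for 0 of the 20 other red pulp macrophage genes and for 19.6% of all genes with a mean of at least 10 CPM. The chemokine receptor gene Ccr2 of classical monocytes was at 3.32, 10.4 and 55.7 CPM in TDC replicates 1, 2 and 3, and Cx3cr1, a receptor of non-classical monocytes and some macrophages, at 17.8, 81.3 and 174 CPM. The DC receptor gene Flt3 had 13.7, 23.5 and 75.6 CPM, and Fn1, a matrix protein gene, 22.1, 176 and 16.3 CPM. The part of such cells in the level of Lyz2 was not tested. Without TDC replicate 3 the log2 fold change of Lyz2 between TDC and DC was 3.15 (adjusted p = 0.00751, in a range from 2.32e-10 to 0.0368 over the alternatives).

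**Figure D3:**
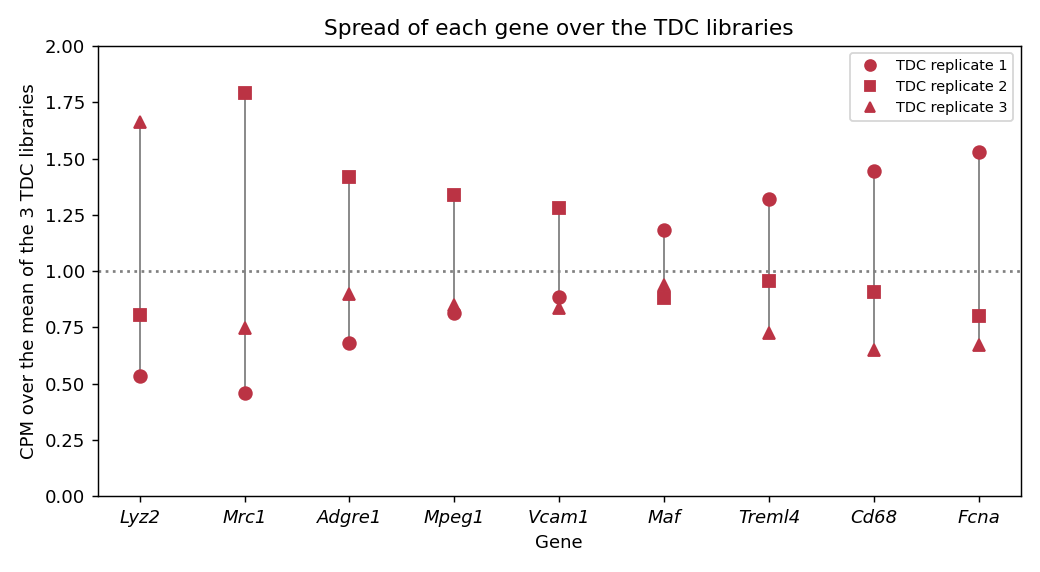
Level of each gene in each TDC library divided by the mean of the 3 TDC libraries, with grey lines from the lowest to the highest and a dotted line at the mean. Lyz2 is highest in replicate 3, a group from Mrc1 to Vcam1 in replicate 2 and a group from Maf to Fcna in replicate 1.

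Most other genes of red pulp macrophages on a list of 20 were also highest in TDC. Of these genes 20 passed as higher than in T cells and 18 as higher than in DC, beside backgrounds of 21.8% and 9.55%. Their median log2 fold changes were 12.75 (12.57 with genes without a T cell read at their bound) and 8.27. Vsig4, Mertk, Cd5l, C6 and Gdf15 needed their TDC reads to pass the filter on low counts. The counts called higher in TDC therefore rest in part on that filter. Between DC and T cells 10 of the 20 were higher in DC, beside 15.4% of all genes, with a median of 4.23 (3.20 with bounds). The highest levels in TDC were those of Slc40a1, the iron exporter ferroportin (13083 ± 4929 CPM), Hmox1, the heme-degrading oxygenase (11948 ± 5261 CPM), Csf1r, the receptor of the macrophage growth factor (7415 ± 3964 CPM), and Axl, a receptor for dying cells (3874 ± 3048 CPM). Spic, which encodes Spi-C, averaged 2887 ± 1376 CPM for TDC against 16.9 ± 5.83 CPM for DC (171-fold, 7.42 on the log2 scale, SE 0.59, adjusted p = 0.000117), with 1 read in T cells.

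The exceptions were Spi1 and Irf8, transcription factors that DC share with macrophages. Spi1, which encodes PU.1, averaged 391 ± 88.8 CPM for TDC against 759.7 ± 272 CPM for DC (-0.96 on the log2 scale, SE 0.36, adjusted p = 0.118). Irf8 averaged 782 ± 162 CPM and 789 ± 246 CPM (-0.01 on the log2 scale, SE 0.36, adjusted p = 0.994). Neither difference passed, and the DC and TDC libraries overlapped for Irf8 but not for Spi1, for which every TDC library lay below every DC library.

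Relatives of the 9 genes were counted as well. Of 15 genes of the same families or groups, 11 were tested, and TDC were higher than T cells for 10 (background 21.8%) and higher than DC for 6 (background 9.55%). Lamp1, a lysosomal membrane protein gene related to Cd68, averaged 2719 ± 140 CPM for TDC against 289.9 ± 54.3 CPM for DC. Adgre4, the F4/80-like receptor gene, averaged 1705 ± 548 CPM for TDC against 54.3 ± 36.9 CPM for DC (4.97 on the log2 scale, SE 0.88, adjusted p = 0.00460). Lamp2 was also higher in TDC than in DC (2.21 on the log2 scale, SE 0.43, adjusted p = 0.00709). By contrast Mrc2, the relative of Mrc1, had 9 reads in TDC and 156 in DC (adjusted p = 0.0623), and Treml2, a relative of Treml4 found on lymphocytes, had its highest mean in T cells (47.9 ± 9.30 CPM against 5.33 ± 4.64 CPM in TDC, adjusted p = 0.0501). Trem2 was at 1.13 ± 0.148 CPM in TDC with no read in either control, so it needed its TDC reads to pass the filter on low counts.

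The integrin genes whose products bind VCAM-1 went in different directions. Itga9, the alpha 9 chain, averaged 442 ± 306 CPM for TDC, 3.78 ± 1.33 CPM for DC and 0.177 ± 0.116 CPM for T cells, and TDC exceeded DC (6.87 on the log2 scale, SE 0.67, adjusted p = 0.000276). Itga4, the alpha 4 chain, was lower in TDC than in DC (50.7 ± 19.7 CPM against 169 ± 53.4 CPM, adjusted p = 0.0123) and did not pass against T cells (71.6 ± 14.9 CPM, adjusted p = 0.333). Itgb7, the partner chain of gut-homing lymphocytes, was lower in TDC (76.4 ± 61.3 CPM) than in DC (365 ± 185 CPM, adjusted p = 0.0239) and T cells (1025 ± 143 CPM, adjusted p = 0.00103). Itgb1 was higher in TDC (576 ± 240 CPM) than in T cells (100.3 ± 15.7 CPM, adjusted p = 0.00289) and did not pass against DC (310 ± 159 CPM, adjusted p = 0.239).

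Markers of other cells that could carry the 9 genes were measured beside them. Marginal zone macrophage genes summed to 996 to 1945 CPM in TDC and 3.27 to 19.4 CPM in DC, with no read in T cells. Marco, a scavenger receptor of those cells, made up most of this (1278 ± 543 CPM in TDC), while Cd209b was at 31.6 ± 15.7 CPM in TDC and Siglec1 at 60.5 ± 29.6 CPM. Endothelial and stromal genes, which bear on Vcam1 and Mrc1, summed to 333 to 918 CPM in TDC, 30.1 to 69.2 CPM in DC and 55.1 to 106 CPM in T cells. Of these 8 genes 4 were tested, and all 4 passed as higher in TDC against each control. The backgrounds were 21.8% against T cells and 9.55% against DC. Stab2, Lyve1 and Pdgfrb needed their TDC reads to pass the filter on low counts, which Cdh5, Col1a1, Cxcl12 and Madcam1 did not pass. Stab2 (317 ± 148 CPM) and Pecam1 (244 ± 126 CPM) led in TDC. Lyve1, a hyaluronan receptor of lymphatic and sinusoidal endothelium and some macrophages, had 7.18, 44.1 and 33.2 CPM in TDC replicates 1, 2 and 3, with 2 reads in DC and none in T cells. Pdgfrb, a receptor of stromal cells, had 2.42, 11.4 and 7.005 CPM in TDC and no read in either control. All 4 were lowest in replicate 1 and highest in replicate 2, as was Mrc1. Adgre1 and Mpeg1 had the same order, and replicate 2 was highest for 10 of the 20 other red pulp macrophage genes. It was highest for 38.0% of all genes with a mean of at least 10 CPM and reads in every TDC library. Cdh5, the cadherin that defines endothelium, had 8 reads over the TDC libraries and 19 over the DC libraries. The part of such cells in the levels of Vcam1 and Mrc1 was not tested.

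Classical monocyte genes summed to 59.6 to 233 CPM in TDC against 393 to 1043 CPM in DC and 226 to 662 CPM in T cells. Plac8 made up most of the DC sum (579 ± 363 CPM, against 29.9 ± 23.6 CPM for TDC) and Ly6c2 most of the T cell sum (351 ± 191 CPM). Fn1 (71.5 ± 90.6 CPM for TDC, 2.53 ± 3.71 CPM for DC, adjusted p = 0.0802) and F13a1 (13.4 ± 17.4 CPM and 1.04 ± 1.41 CPM, adjusted p = 0.185) had higher means in TDC than in DC without passing, and both passed as higher than in T cells, where they had no read. Non-classical monocyte genes summed to 1643 to 3139 CPM against 1240.05 to 2501 CPM and 213 to 269 CPM. Adgre4 and Cd300e (347 ± 32.7 CPM) led the latter list in TDC. Nr4a1 made up most of its DC sum (1898 ± 637 CPM, against 281 ± 173 CPM for TDC). The 9 neutrophil genes, which bear on Lyz2, summed to 0.298 to 66.5 CPM in TDC and at most 3.20 CPM in a DC library, and 3 of them had no read in TDC. S100a9 led with 39.2 CPM in TDC replicate 1, the library with the lowest Lyz2. Erythroid genes summed to 703 to 2220 CPM in TDC, at most 22.4 CPM in DC and at most 14.3 CPM in T cells. Plasmacytoid DC genes summed to 259 to 467 CPM in TDC, 159.9 to 177 CPM in DC and 174 to 211 CPM in T cells. B cell genes summed to 74.2 to 129 CPM, 207 to 281 CPM and 14.8 to 34.0 CPM in the same order, NK cell genes to 1.39 to 2.68 CPM, at most 4.90 CPM and 104 to 125 CPM, and megakaryocyte and platelet genes to 12.3 to 18.5 CPM, at most 3.67 CPM and at most 1.69 CPM. The part of any of these cells in the levels of the 9 genes was not tested.

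**Figure D4:**
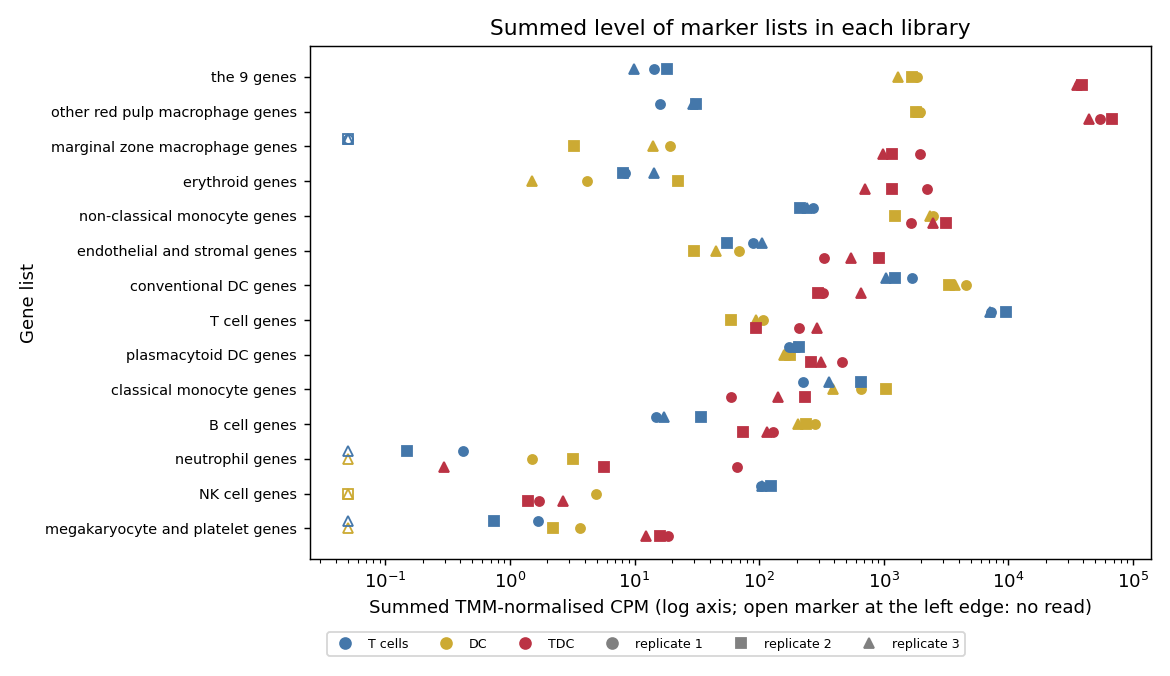
Summed level of the 9 genes and of each marker list in each library, as TMM-normalised CPM on a log axis, with open symbols for libraries without a read. The 9 genes sum to 35633 CPM or more in each TDC library and to 1861 CPM or less in each DC library, and the conventional DC and T cell lists are lower in TDC than in the population they name.

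Conventional DC genes summed to 295 to 652 CPM in TDC and 3316 to 4581 CPM in DC, and T cell genes to 94.6 to 292 CPM in TDC and 7092 to 9661 CPM in T cells. The 9 genes summed to 35633 CPM or more in each TDC library. That was above both lists in TDC, and also above each list in its own control. Sums over lists of different genes therefore do not rank the cell types. Of the 10 conventional DC genes 7 were lower in TDC than in DC (background 4.60% lower), and of the 10 T cell genes 10 were lower in TDC than in T cells (background 11.2% lower). Set against the other control, 8 of the 10 conventional DC genes were higher in TDC than T cells (background 21.8%) and 8 of the 10 T cell genes higher in TDC than DC (background 9.55%). Cd3g, for example, had 45.1, 9.42 and 34.2 CPM in TDC and no read in DC.

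The 10 genes whose levels over the 9 libraries were most like the mean standardised level of the 9 genes included Pira2, Tbxas1, Blnk, Hpgd, Ctsc, Hexa, Cd38, Dmwd and Dlg2, with Pearson r from 0.994 to 0.997 on log2(CPM + 1) among 9574 genes. The 9 libraries fall into 3 populations, so r mainly records the spacing of the populations, and 266 genes (2.78%) had r above 0.95. Ctsc, a lysosomal protease gene, averaged 5451 ± 1197 CPM for TDC, 579.7 ± 187 CPM for DC and 132 CPM for T cells, and Hpgd, which encodes an enzyme that inactivates prostaglandins, averaged 1619.7 ± 198 CPM for TDC and 43.0 ± 13.8 CPM for DC, with no read in T cells. Pira2 belongs to a family of near-identical receptor genes, so its separate count is uncertain. The choice of these 10 depended on the scale: 2 of them were among the first 10 with 0.1 in place of 1 as the added CPM, and 3 by Spearman rank.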

How the data were processed

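RNA of 9 sorted spleen cell pools was sequenced after Lexogen stranded QuantSeq preparation, per the labels' protocols. The authors deposited whole-number read counts per gene, not normalised. STAR, featureCounts and Trimmomatic, with FastQC and MultiQC for quality reports, are listed without versions in the submitters' processing notes. These name the human build hg38 although samples and gene symbols are mouse. Annotation and strand setting are not stated, so overlapping, antisense and near-identical genes remain uncertain. Libraries of a group differed beyond sampling noise (chi-square per degree of freedom 67.9 to 275).

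Counts were tested as deposited with edgeR 4.0.16 in R 4.3.3: filterByExpr (minimum count 10, minimum total 15; 14708 genes), TMM factors and a robust quasi-likelihood fit of all 9 libraries with 6 residual degrees of freedom, with Benjamini-Hochberg adjustment over all tested genes at 0.05. Adjusted p-values are from this fit unless another tool is named. SE is the log2 fold change divided by the root of F. CPM uses TMM-scaled totals of tested genes. Against a group without reads, fold changes are lower bounds with 3 reads over the group, and against 1 to 3 reads they are ratios of pooled reads with exact 95% intervals for counting error. The script was tested on simulated data. Alternatives were other scalings and filters, DESeq2 1.42.0, limma-voom (limma 3.58.1), pairwise fits, a replicate block and leaving out libraries.

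The 9 genes and the lists were chosen with earlier results of these data known, so nothing in their direction is independent evidence. Named besides the 9 were up to 4 highest genes in TDC of each list, defining markers at or near 0, and the 10 genes most like the 9, except that some genes the rule names are not reported here. Genes the text compares by family or role, and single list members beyond that rule, were picked after their values were seen.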

Additional observations from a re-analysis of the deposited data

How the results depend on the processing

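Of 27 log2 fold changes (9 genes in 3 comparisons), 21 stayed on the same side of the threshold with the same sign under every alternative run. The remaining 6 were Mpeg1 and Cd68 (TDC against DC), Maf (TDC against T cells and DC against T cells), and Mrc1 and Fcna (DC against T cells). Mrc1 turned to -0.19 without DC replicate 1 and to -0.22 without the replicates numbered 1, and leaving out replicates gave -0.22 to 2.58. The other 5 crossed the threshold, and the cause was not tested. The 3 scalings tried in place of TMM changed no call of the 9 genes. In the fit of DC and T cells alone, Mrc1 and Fcna gave no value because the filter on low counts removed them.

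Calls over all genes moved more. TDC against DC had 2081 calls, 3249 with the DESeq2 Wald test and 1190 without TDC replicate 2. Leaving out 1 library or 1 replicate number gave 2636 to 5530 calls for TDC against T cells (main 4858), 629 to 1976 for TDC against DC and 1835 to 3876 for DC against T cells (main 3506), with fewer samples in each fit. Of the 10 genes most like the 9, 2 were shared with the smaller added CPM and 3 with Spearman rank.

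Libraries of the same replicate number share a name prefix and pool size, but the labels do not say what the prefix marks, and the data did not show a pairing: correlations of deviations between same-numbered libraries ran from -0.38 to 0.22, and 2 of 9 exceeded 0.1, against 5 of 18 with different numbers. With the replicate block 9, 8 and 7 of the 9 genes were higher for TDC against T cells, TDC against DC and DC against T cells, and 3946, 1486 and 2836 genes were called.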
